A study of Mus musculus with 6 samples.

Results

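Meningeal fibroblasts are the connective tissue cells of the membranes that wrap the brain. A set of 10 genes that mark them was examined as a check for such cells in cultures of mouse ependymal cells, and all 10 were found by symbol among the 22851 genes of the deposited count table. They are the transcription factor genes Foxc1, Foxc2, Foxd1, Tbx18, Twist1 and Osr1, the secreted proteoglycan genes Lum, Dcn and Ogn, and the transporter gene Slc6a13. The study asks which genes depend on Edf1, a transcriptional coactivator that also binds collided ribosomes, while multiciliated ependymal cells form. Radial glial cells from brains of C57BL/6J mice at postnatal days 0 to 3 were kept in medium with 10% serum and then left without serum for 6 days. The comparison has 3 libraries from wild-type (WT) mice and 3 from Edf1 knockout mice (Edf1 KO) made with CRISPR/Cas9, and the 2 groups carry no other allele or agent in the labels. The labels call them biological replicates, and the number of mice behind each library is not given in the sources used here, so p-values measure the spread between these libraries.

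The meninges consist of the pia, which lies on the brain surface, the arachnoid above it and the dura under the skull. Their fibroblasts deposit collagens, laminins and small leucine-rich proteoglycans, and they secrete signals to the brain below, such as bone morphogenetic proteins and retinoic acid. Foxc1 is needed for the meninges to form, and the arachnoid carries transporters that make it a barrier. No marker of the set is used by meningeal fibroblasts alone: proteoglycans of this kind are made by fibroblasts of most organs, and Tbx18 and Foxd1 also mark pericytes or their precursors.

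Total counts were 13071766 to 28087006 per library, and the tested genes numbered 14243. Edf1 itself fell from 82.9 ± 2.85 to 11.3 ± 1.72 CPM (read counts scaled to a common library total; mean ± SD, n = 3), so the target gene matched the labels in all 6 libraries. In a principal component analysis WT replicate 2, the most shallowly sequenced sample, stood apart from the other WT libraries on the second component, which held 16.1% of the variance. Ependymal markers were present in every library, with the cilia regulator gene Foxj1 at 788 ± 43.4 CPM in WT and 523 ± 10.3 CPM in Edf1 KO.

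Promoter sequences are shown for the called markers with a RefSeq entry (GRCm38.p6), Ogn and Twist1. The reference table matched 6 of the 10 genes; Foxc2, Osr1, Lum and Dcn were not matched. Each window holds the 250 bases before the RefSeq gene start on the plus strand, at chr13:49607765-49608014 for Ogn and at chr12:33957421-33957670 for Twist1. Capitals mark matches on either strand to the TATA box (TATAAA), the E-box that Twist1 and related factors bind (CANNTG), a forkhead sequence (TGTTTAC) and a T-box sequence (AGGTGTGA).
Ogn: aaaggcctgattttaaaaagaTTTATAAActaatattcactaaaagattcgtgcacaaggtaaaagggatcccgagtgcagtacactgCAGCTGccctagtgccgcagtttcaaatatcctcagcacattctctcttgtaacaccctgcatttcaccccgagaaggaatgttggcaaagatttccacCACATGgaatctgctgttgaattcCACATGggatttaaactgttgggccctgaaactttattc
Twist1: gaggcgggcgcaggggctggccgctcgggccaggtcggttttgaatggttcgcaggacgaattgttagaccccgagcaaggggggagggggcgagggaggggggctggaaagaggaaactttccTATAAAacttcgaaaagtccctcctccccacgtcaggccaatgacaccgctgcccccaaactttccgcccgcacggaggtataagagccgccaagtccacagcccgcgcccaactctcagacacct
The Ogn window holds 3 E-box matches and 2 overlapping TATA matches, whose first bases lie 229 and 227 bases before the start. The Twist1 window holds 1 TATA match, which begins 126 bases before the start, and no E-box match. Neither window holds the forkhead or the T-box letters. Of 32841 RefSeq windows of this length, 66.2% hold the E-box, 12.4% the TATA box, 3.17% the forkhead sequence and 1.12% the T-box sequence. The base composition differs: GC content is 42.0% with 4 CpG pairs for Ogn and 62.4% with 18 CpG pairs for Twist1, against medians of 52.4% and 6 over all windows. Among the transcription factor genes, the Foxc1 window is the richest of the matched markers in CpG, with 29 pairs.

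Markers with enough reads were higher in Edf1 KO. Of the 10 genes, 7 passed the low-count filter, each with at least 18 counts in every library of both genotypes. By the quasi-likelihood test of edgeR, 5 of the 7 were called higher at an adjusted p-value under 0.05, namely Dcn, Lum, Twist1, Osr1 and Ogn. Of all 14243 tested genes, 12.7% were called higher and 26.9% in either direction. None of the 7 was called lower, against 14.2% of all tested genes, and 0 were lower at an unadjusted p-value under 0.05 in edgeR. DESeq2 and limma voom also called 0 of them lower. The count called higher was 3 without Edf1 KO replicate 2 and 3 without Edf1 KO replicate 3. The median log2 fold change of the 7 genes was 0.65, beside 0.0029 over all tested genes. The libraries of the genotypes did not overlap for 6 of the 7, and they did not overlap for 43.3% of all tested genes, or 21.3% counting only those higher in Edf1 KO. RNA was measured in bulk, so more cells of a type and more RNA per cell cannot be told apart.

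**Figure D1:**
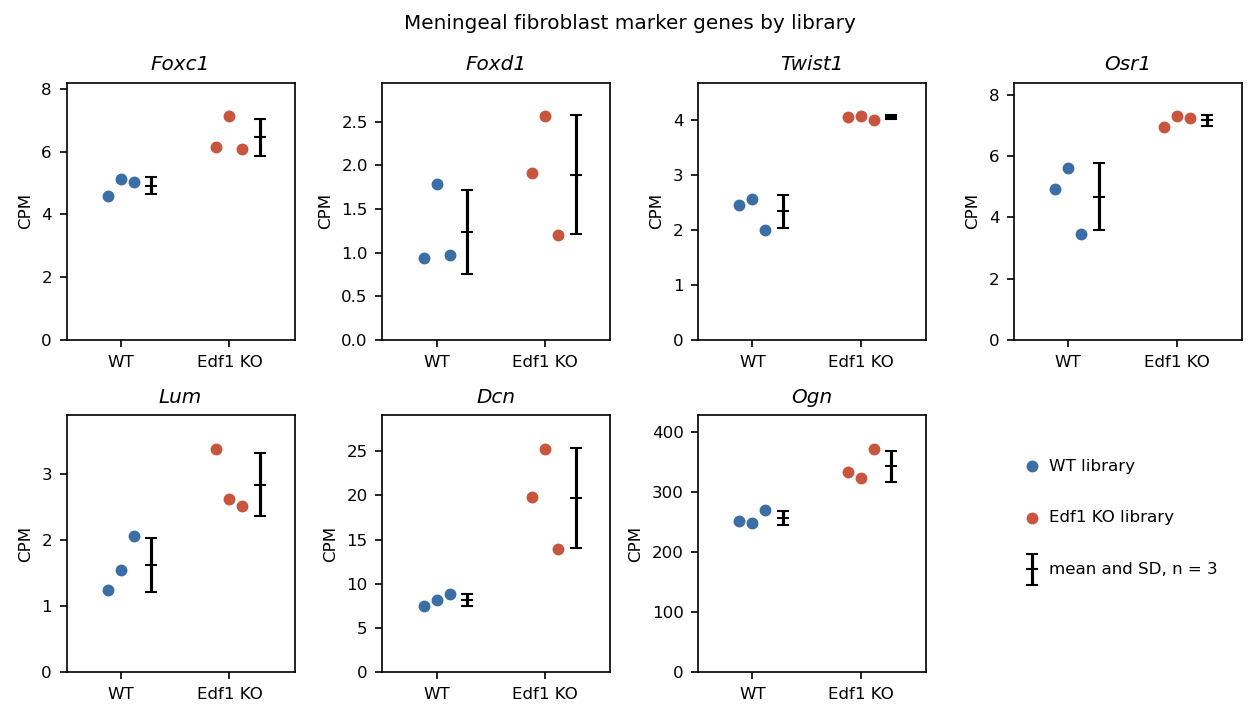
Level of each tested marker gene in CPM (vertical axis, from 0) in the 3 WT and the 3 Edf1 KO libraries; points are libraries, and bars are the mean and SD. Foxd1 is the panel in which the genotypes overlap, and Ogn is the one gene above 200 CPM.

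Twist1 and Osr1 were the transcription factor genes that rose. Twist1 encodes a basic helix-loop-helix factor of mesenchyme and neural crest derivatives and lies at chr12:33957671-33959829 (GRCm38, plus strand). It had 2.45, 2.56 and 2.0001 CPM in WT and 4.06, 4.07 and 4.0006 CPM in Edf1 KO. All knockout libraries were above all WT libraries and close to each other. Its log2 fold change reached 0.79 (SE 0.18; edgeR adjusted p-value 0.00676), and the call was kept in each of 14 alternatives (other scalings, filters and tools, a stricter threshold, the replicate number as a block and each library left out).

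Osr1 encodes a zinc finger factor of mesodermal connective tissue and lies at chr12:9570116-9581500 (plus strand). Its levels were 4.93, 5.59 and 3.46 CPM in WT and 6.95, 7.298 and 7.22 CPM in Edf1 KO. WT replicate 3 was the lowest library, and the groups did not overlap. This is a log2 fold change of 0.63 (SE 0.17; edgeR adjusted p-value 0.014). The call was lost without Edf1 KO replicate 2 (0.62, adjusted p-value 0.0502), without Edf1 KO replicate 3 (0.63, adjusted p-value 0.054) and at the stricter threshold of 0.01, and over all alternatives the adjusted p-value was 0.00234 to 0.054.

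Foxc1 and Foxd1 did not pass the threshold. Foxc1, the forkhead gene needed for the meninges (chr13:31806633-31812476, plus strand), had 4.596, 5.13 and 5.03 CPM in WT and 6.15, 7.13 and 6.09 CPM in Edf1 KO. The groups did not overlap, but the log2 fold change of 0.40 (SE 0.14) had an adjusted p-value of 0.0534 in edgeR. It passed on library size alone (0.41, adjusted p-value 0.0462) and when a mean of 50 counts was required (0.40, adjusted p-value 0.0479), and over the alternatives its adjusted p-value was 0.0462 to 0.18.

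Foxd1 (chr13:98354242-98359305, plus strand) encodes a forkhead factor of stromal precursors. It had 0.942, 1.79 and 0.973 CPM in WT and 1.91, 2.56 and 1.20 CPM in Edf1 KO. WT replicate 2 exceeded Edf1 KO replicate 3, so the groups overlapped. Its log2 fold change of 0.65 (SE 0.35; edgeR adjusted p-value 0.196) was the least precise estimate of the 7.

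The 3 remaining markers had almost no reads in either genotype. Foxc2, the closest relative of Foxc1, lies at chr8:121116171-121118895 (plus strand) and had 4, 0 and 0 counts in WT and 3, 2 and 4 in Edf1 KO. Tbx18, a T-box factor gene of pial cells and pericytes (chr9:87702800-87731260, minus strand), had 0, 1 and 4 counts in WT and 3, 7 and 0 in Edf1 KO. Slc6a13, which encodes a GABA and taurine transporter of the arachnoid barrier (chr6:121300227-121337733, plus strand), had 3, 1 and 0 counts in WT and 6, 0 and 0 in Edf1 KO. These counts lie at or close to 3 counts, which corresponds to 0.106 to 0.233 CPM depending on the library, and no fold change is given for them. Without the low-count filter edgeR gave adjusted p-values of 0.56 for Foxc2, 0.645 for Tbx18 and 0.833 for Slc6a13. Exons of Tbx18 share 970 bases with D030062O11Rik on the opposite strand, and the strand setting of the counting is not given in the sources used here, so even its few reads are uncertain.

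The secreted proteoglycan genes Dcn, Lum and Ogn all rose, Dcn by the most. Decorin, the product of Dcn, binds collagen fibrils and growth factors, and lumican, the product of Lum, controls fibril diameter. The genes are neighbours, Dcn at chr10:97479609-97518143 and Lum at chr10:97565128-97572703, both on the plus strand and 47.0 kb apart. Dcn had 7.53, 8.24 and 8.81 CPM in WT and 19.8, 25.3 and 13.98 CPM in Edf1 KO. The WT libraries lay close together, and the knockout libraries were all higher and spread widely, with replicate 3 the lowest. The resulting log2 fold change of 1.25 (SE 0.18; edgeR adjusted p-value 0.000292) was the largest of the 7, and the call was kept in each of 14 alternatives.

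Lum had 1.24, 1.55 and 2.05 CPM in WT and 3.38, 2.62 and 2.51 CPM in Edf1 KO, with no overlap. The log2 fold change came to 0.82 (SE 0.25; edgeR adjusted p-value 0.0297). This call rested on few reads, 20 to 38 counts per WT library. It was lost without WT replicate 1 (0.61, adjusted p-value 0.134), Edf1 KO replicate 1 (0.68, 0.115), Edf1 KO replicate 2 (0.86, 0.0619) or Edf1 KO replicate 3 (0.91, 0.0518), and at the stricter threshold of 0.01. Over all alternatives its adjusted p-value was 0.0177 to 0.134.

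Ogn was by far the most abundant marker. It encodes osteoglycin, also called mimecan, a small proteoglycan of bone, cornea and other connective tissue, and lies at chr13:49608046-49624501 on the plus strand, inside the opposite-strand gene Cenpp but with no shared exon base. Its levels were 252, 248 and 269.6 CPM in WT and 335, 323 and 373 CPM in Edf1 KO. All knockout libraries exceeded all WT libraries. The log2 fold change of 0.42 (SE 0.059) was smaller than that of Dcn and had the smallest standard error of the 7 (edgeR adjusted p-value 0.000205), and the call was kept in each of 14 alternatives.

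**Figure D2:**
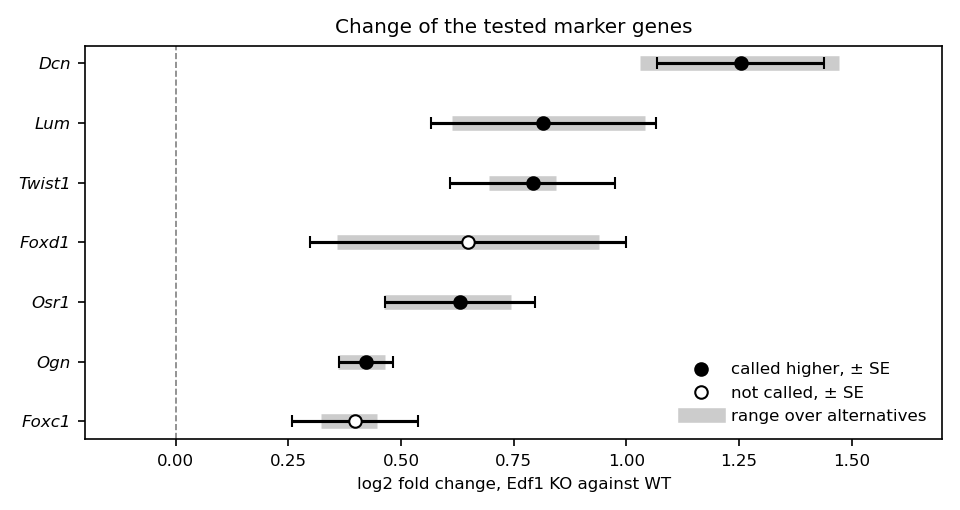
Log2 fold change of Edf1 KO against WT (horizontal axis) for the 7 tested markers, with the standard error as black bars and the range over the alternative settings as grey bars. Filled points passed the threshold; values run from 0.40 for Foxc1 to 1.25 for Dcn, and no grey bar reaches 0.

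The markers differed widely in level. Divided by exon length, Ogn stood at 99.9 ± 4.499 CPM per kilobase in WT, and the next gene, Osr1, at 2.26 ± 0.53. Twist1 (1.44 ± 0.18) and Dcn (1.40 ± 0.11) followed, and their WT libraries overlapped. Foxc1 (0.841 ± 0.0484) and Lum (0.661 ± 0.167) also overlapped with each other, and Foxd1 was lower at 0.244 ± 0.0946 CPM per kilobase. In Edf1 KO the order was Ogn at 133.9 ± 10.1, Osr1 at 3.46 ± 0.0894, Dcn at 3.37 ± 0.969, Twist1 at 2.48 ± 0.0221, Lum at 1.16 ± 0.193, Foxc1 at 1.10 ± 0.1 and Foxd1 at 0.373 ± 0.134 CPM per kilobase. There Dcn overlapped with both Osr1 and Twist1, and Lum with Foxc1. The 3 genes with almost no reads were at most 0.0219 CPM per kilobase in the WT mean and 0.0535 in the knockout mean.

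**Figure D3:**
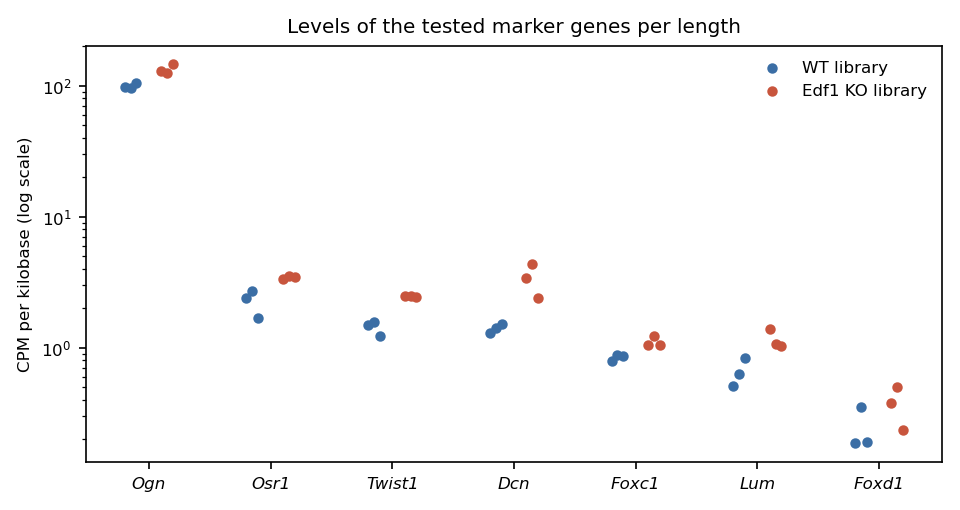
Level of the 7 tested markers in CPM per kilobase of exon (vertical axis, log scale), ordered by the WT mean, with 1 point per library. Ogn lies far above the others, at 99.9 in WT against 2.26 for Osr1.

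Summed over the 10 genes, the level was 274, 273 and 292 CPM in WT and 377, 373 and 408 CPM in Edf1 KO. Knockout exceeded WT 1.38-fold, and 1.37-fold per kilobase. Ogn made up 90.8% to 92.3% of this sum in WT and 86.7% to 91.4% in Edf1 KO. Without Ogn the sum was 21.96, 25.02 and 22.5 CPM in WT and 42.97, 49.5 and 35.2 CPM in Edf1 KO, 1.84-fold higher. The ratio of Ogn to Dcn in CPM was 33.4, 30.1 and 30.6 in WT and 16.9, 12.8 and 26.7 in Edf1 KO. Of the knockout libraries, Edf1 KO replicate 3 had the highest Ogn and the lowest Dcn, Foxd1, Foxc1, Lum and, by a small margin, Twist1. Osr1 was lowest in Edf1 KO replicate 1. Ogn thus did not vary alike with most of the other tested markers among the knockout libraries. The difference between the ratios of Ogn to Dcn was not tested.

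The genes whose levels over the 6 libraries followed the summed markers most closely, among 12883 candidates with a mean log2 CPM of at least 1, were Trpm1, Vcam1, Hsp90b1, Ei24 and Col22a1. Pearson's r of log2 CPM was 0.997 for Trpm1 and Vcam1 and 0.996 for the other 3. The libraries fall into 2 genotypes and Ogn makes up most of the sum, so these values describe a shared difference between the genotypes. Vcam1, a cell adhesion molecule, had 197 ± 3.95 CPM in WT and 247 ± 6.26 CPM in Edf1 KO.

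Relatives and neighbours of the proteoglycan markers were examined next. Of 11 other genes of the family of small leucine-rich proteoglycans and related proteins, 8 were tested and 2 were called higher, beside 12.7% of all tested genes. The count was 1 without Edf1 KO replicate 1 or 3, and 1 at an adjusted p-value under 0.01. Biglycan (Bgn) rose from 26.0 ± 3.67 to 37.4 ± 3.37 CPM (log2 fold change 0.52, adjusted p-value 0.0025 in edgeR), and Ecm2 from 89.6 ± 2.95 to 102.6 ± 3.28 CPM (0.20, adjusted p-value 0.0183). Omd, which lies 15.2 kb from Ogn, had 65.8 ± 4.08 CPM in WT and 72.5 ± 6.12 CPM in Edf1 KO (0.14, adjusted p-value 0.164). Prelp had 371 ± 4.89 and 356 ± 16.6 CPM (-0.060, adjusted p-value 0.387), and Fmod 220.5 ± 7.52 and 237.9 ± 12.7 CPM (0.11, adjusted p-value 0.153). Per kilobase, Prelp (102.7 in WT), Fmod (66.7) and Omd (29.2) lay far above Dcn and Lum, as Ogn did. Kera, the gene next to Lum, and Epyc and Aspn had too few reads to be tested.

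Many relatives of the other markers had few reads. The forkhead genes beside Foxc1 and Foxc2, which are Foxf2, Foxq1, Foxf1 and Foxl1, had too few reads to be tested, and Foxl1 had 0 counts in every library. Slc6a12, the neighbour of Slc6a13 at 5.34 kb, had 0.728 ± 0.353 CPM in WT and 0.729 ± 0.129 CPM in Edf1 KO. Of the 5 related transporters tested, Slc6a11 was the one called, beside 14.2% of all tested genes called lower. Its log2 fold change was -0.31 (adjusted p-value 0.0143 in edgeR). This call was lost, leaving 0 in the list, without WT replicate 1, WT replicate 3 or Edf1 KO replicate 3, and at an adjusted p-value under 0.01. Of 20 other transcription factor genes of mesenchyme, 15 had too few reads to be tested, and Twist2, Osr2 and Ebf2 had 0 counts throughout. Prrx1 (0.49, adjusted p-value 0.00133) and Nr2f2 (0.28, adjusted p-value 0.00905) were called higher among the 5 that were tested, beside 12.7% of all tested genes. The count was 1 without WT replicate 1.

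Most of the tested matrix genes that fibroblasts share with other cells were higher as well. Of 32 such genes 30 were tested, and edgeR called 21 of them higher, beside 12.7% of all tested genes, with a median log2 fold change of 0.61. Periostin (Postn, 1.38), Col14a1 (1.31) and the matrix protease gene Mmp2 (1.13) had the largest rises. The other 9 tested genes were not called. Among them Pi16 (-0.63), Loxl2 (-0.37) and Mfap5 (-0.18) were below 0, and Nupr1 (0.41) and Serpinf1 (0.36) above it. Dpt and Cygb had too few reads to be tested. Col1a1, a chain of the main fibrillar collagen, rose from 22.4 to 44.7 CPM in the mean. Pdgfra, which marks fibroblasts and oligodendrocyte precursors, had 12.1 CPM in WT and 11.5 CPM in Edf1 KO (-0.091, adjusted p-value 0.584 in edgeR).

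Markers of the separate meningeal layers were taken from pia, arachnoid and dura. Of 17 genes 11 were tested and edgeR called 3, all higher, beside 12.7% of all tested genes. The count of called genes was 5 in DESeq2 and without WT replicate 2, and 2 without WT replicate 1, WT replicate 3, Edf1 KO replicate 1 or Edf1 KO replicate 3. The called genes were the pial markers Ngfr (1.55, adjusted p-value 0.00781) and Lama1 (1.29, adjusted p-value 0.00242) and the dural marker Fxyd5 (0.29, adjusted p-value 0.0171). Ngfr and Lama1 were low, at 0.336 and 1.14 CPM in the WT mean and 1.07 and 2.91 CPM in the knockout mean. Ngfr had 12, 3 and 6 counts in WT. The more abundant pial marker S100a6 had 156 CPM in the WT mean and 143 CPM in the knockout mean. It was not called (-0.13, adjusted p-value 0.273 in edgeR), and the pial gene Lamc3 had too few reads to be tested. The arachnoid genes Aldh1a2, the retinoic acid synthesis enzyme, and Cldn11 had 0.591 and 0.564 CPM in the WT mean and did not pass (adjusted p-values 0.766 and 0.678 in edgeR). Ptgds, the most abundant arachnoid gene of the list, had 11.5 CPM in the WT mean and 15.6 CPM in the knockout mean. Its libraries did not overlap between the genotypes, but it was not called (0.43, adjusted p-value 0.071 in edgeR). The arachnoid transporter gene Slc22a6 had 0 counts in every library, and Slc22a8 and Slc47a1 had too few to be tested. Of the other dural genes, Dkk2 had 2.31 CPM in the WT mean and 1.49 CPM in the knockout mean (-0.65). Mgp (1.54), Alpl (0.49) and Nppc (0.12) had values above 0. None of these dural genes was called, with edgeR adjusted p-values of 0.0844, 0.0514, 0.0945 and 0.868. The summed level of the 17 genes was 179 to 219 CPM in WT and 185 to 204 CPM in Edf1 KO, so it overlapped. S100a6 made up most of this sum, with 156 of 195 CPM in the WT mean, so the overlap mainly describes that gene.

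Signals that meninges are known to secrete were tested for 11 of 12 genes, and 4 were called higher, beside 12.7% of all tested genes. The median log2 fold change of the list was 0.12, and 7 genes were not called. Bmp4 rose from 0.77 ± 0.301 to 3.14 ± 0.208 CPM (log2 fold change 2.04), the axon guidance gene Slit2 from 75.2 ± 5.84 to 173 ± 7.23 CPM (1.20) and Slit3 by 0.71 on the log2 scale. Their adjusted p-values in edgeR were at most 0.000285. The chemokine gene Cxcl12 had 0.453 CPM in WT and 0.923 CPM in Edf1 KO (0.95, adjusted p-value 0.0962). Bmp6, the most abundant gene of the list, had 239 CPM in WT and 235 CPM in Edf1 KO (-0.022, adjusted p-value 0.812 in edgeR). Angptl2 (-0.42) and Aldh1a2 (-0.25) were below 0 and Wnt5a (0.12), Rdh10 (0.11) and Igf2 (0.025) above it, and none of these was called.

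**Figure D4:**
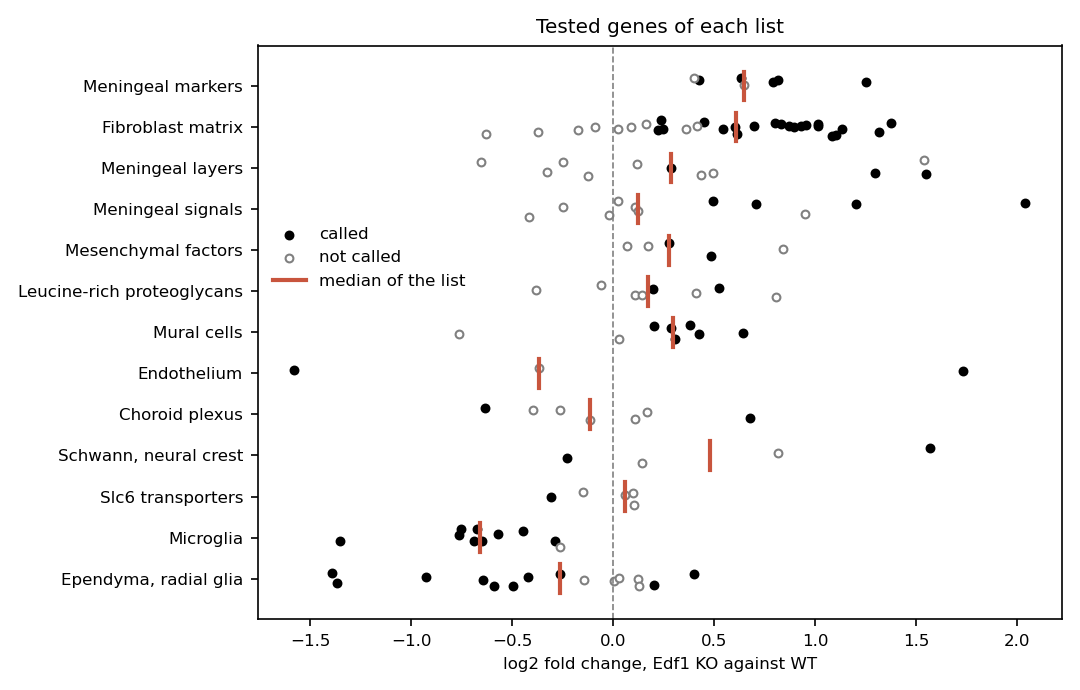
Log2 fold change of Edf1 KO against WT (horizontal axis) of each tested gene in 13 lists (rows), with filled points for genes past the threshold, open points for the others and a bar at the median of the list. The medians are 0.65 for the meningeal markers, 0.61 for fibroblast matrix genes and -0.66 for microglia.

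Markers of other cell types moved with the genotype in both directions. Of 14 mural cell genes 8 were tested and 6 were called higher, beside 12.7% of all tested genes, led by Cnn1 (0.64), Pdgfrb (0.42) and Cspg4 (0.38). The count was 4 without WT replicate 1, Edf1 KO replicate 1 or Edf1 KO replicate 2, and 3 at an adjusted p-value under 0.01. Summed levels were 884 to 926 CPM in WT and 1053.5 to 1145 CPM in Edf1 KO. Acta2 (475 CPM in the WT mean) and Tagln (288 CPM) made up most of this sum, whose WT mean was 898 CPM. The smooth muscle gene Myh11 had 0.86 CPM in WT and 0.475 CPM in Edf1 KO (-0.76, adjusted p-value 0.263 in edgeR). The pericyte genes Rgs5, Kcnj8, Abcc9, Des, Higd1b and Vtn had too few reads to be tested. Of 12 endothelial genes 3 were tested. Kdr rose (1.73) and Flt1 fell (-1.58), beside 26.9% of all tested genes called in either direction. Pecam1, Cldn5 and Tie1 were among the 9 with too few reads. Their part in the rise of the meningeal markers was not tested.

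Of the 10 microglial genes, all tested, 9 were called lower, beside 14.2% of all tested genes, with a median log2 fold change of -0.66 and summed levels of 1761 to 1884 CPM in WT and 1145 to 1163 CPM in Edf1 KO. P2ry12 had the largest fall (-1.35). Among 15 ependymal and radial glial genes 8 were called lower and 2 higher, beside 14.2% and 12.7% of all tested genes. The ependymal genes Tmem212 (-1.40), Ccdc153 (-1.37) and Dynlrb2 (-0.93) fell most, and Foxj1, Rarres2 and S100b were also called lower. The radial glial and astrocyte genes were mixed. Nes (0.40) and Fabp7 (0.20) were called higher, and Gfap (-0.42) and Prom1 (-0.27) lower. Slc1a3, Vim, Sox2, Sox9 and Aqp4 were not called. Among all tested genes 26.9% were called in either direction. The choroid plexus list had 7 tested of 11 genes, with Otx2 higher (0.68) and Enpp2 lower (-0.63). The Schwann and neural crest list had 4 of 10, with Dhh higher (1.57) and Pmp22 lower (-0.23). The latter list had 1 call, in place of 2, when any single knockout library was left out. It also had 1 call at an adjusted p-value under 0.01 and under the filter on a mean of 50 counts. The part of these shifts in the levels of the meningeal markers was not tested.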

How the data were processed

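Libraries came from TRIzol-extracted RNA and an mRNA library kit (MGIEasy), per the labels' protocols. FastQC 0.11.2, cutadapt 1.11, HISAT2 2.1.0 and the build GRCm38 are named in the submitters' processing notes; the counting program, annotation and strand setting are not given in the sources used here. The authors deposited raw read counts, whole numbers per gene symbol, 1 column per library, with 0 rows without a gene name and 0 unused sample columns.

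Counts were analysed in R 4.3.3 with edgeR 4.0.16: filterByExpr (14243 genes kept), TMM factors, and the quasi-likelihood test of Edf1 KO against WT over all 6 libraries, with p-values adjusted by Benjamini-Hochberg across the tested genes and called under 0.05. Standard errors were derived from the fold change and the F statistic. CPM uses TMM-scaled totals of the tested genes, and log2 CPM a prior count of 2. A library at or under 3 counts of a gene counted as not above the detection floor, a limit for counting error alone. Exon lengths, overlaps and positions come from GENCODE M21 (GRCm38), and promoters from RefSeq. Replicates of one genotype differed by more than sampling noise (chi-square per degree of freedom 3.03 to 10.03). The script was tested on simulated counts.

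The members and gene lists were chosen with earlier results of these data known, so no list received a test. All 10 markers, Edf1, and relatives and neighbours of the markers are named. Up to 3 called genes per list with the largest change are named too, as are the 5 genes of most similar pattern. Col1a1, Pdgfra, Cxcl12, Aldh1a2, Cldn11, Myh11, S100a6, Acta2 and Tagln were added after their values were seen. So were Foxj1, Nes, the ependymal and radial glial genes beyond the 3 of largest change and genes listed as having few reads. Ptgds, Dkk2, Mgp, Alpl, Nppc, Pi16, Loxl2, Mfap5, Nupr1, Serpinf1, Bmp6, Angptl2, Rdh10, Wnt5a and Igf2 were also added after their values were seen. Alternatives were DESeq2 1.42.0, limma 3.58.1 voom, other scalings and filters, a threshold of 0.01, the replicate number as a block and each library left out.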

Additional observations from a re-analysis of the deposited data

How the results depend on the processing

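All 7 tested markers kept a value above 0 in every alternative that tested them. The count of markers called higher was 5, or 6 on library size alone, 3 at an adjusted p-value under 0.01 and 3 to 5 in fits that left out a library. The count called lower was 0 throughout. The count of all changed genes was 3833, 2213 at the stricter threshold and 2658 to 4340 when a library was left out, and the median log2 fold change of the markers ran from 0.53 to 0.80 in those fits. With the replicate block 4065 genes were called and 5 markers were higher; it changed no call of a marker, and deviations of same-numbered libraries from their group means correlated at 0.0693, 0.0604 and 0.0372, so no pairing was assumed. On library size alone 50.3% of the called genes were higher, against 47.1% with TMM. Leaving out Ogn moved the summed marker level from 1.38-fold to 1.84-fold. In the meningeal layer list 1 gene was called under the filter on a mean of 50 counts, where 4 of its genes were tested, and 5 without the low-count filter, with 16 tested. For the other changes the cause was not tested. The highest count of Foxc2, Tbx18 and Slc6a13 was 7, and whether depth limits them was not tested.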
